A study of Mus musculus with 10 samples.

Results

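Peaks of open chromatin at the ends of protein-coding genes were taken from ATAC-seq of mouse neural stem cell lines, where the transposase Tn5 cuts and tags DNA that is accessible. A peak was an end peak when its summit lay on an autosome within 1 kb of either end of a protein-coding gene, by position alone. End peaks numbered 16017 of 100826 autosomal peaks in the del/del female list, 17098 of 126111 in the fl/fl female list, 15404 of 86015 in the del/del male list and 15801 of 98744 in the fl/fl male list. They lay at the ends of 67.6%, 69.4%, 65.3% and 66.4% of the 20661 autosomal coding genes, in the same order of lists.

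The groups were Smchd1 del/del females (3 libraries), Smchd1 fl/fl females (3 libraries), Smchd1 del/del males (2 libraries) and Smchd1 fl/fl males (2 libraries), all of the C57BL/6 strain and from embryos of E14.5 that carried floxed Smchd1. One growth protocol stands with all groups: a retrovirus carrying Cre and a puromycin marker (MSCV-Cre-puro), puromycin from 24 h, and harvest after 7 days. The labels do not say whether a vector was given to the fl/fl cells, nor how many lines stand behind the libraries. The description of the male samples calls them female, while their titles and sex field say male.

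The libraries of a group were pooled into 1 peak list, so values carry no error between replicates and no difference between groups could be tested. The lists rested on 139318421 tags in del/del females, 144613215 in fl/fl females, 74674218 in del/del males and 91734730 in fl/fl males, and held 104716, 130487, 88438 and 101635 peaks as deposited. Because depth and length differed, groups were compared over the 88159 peaks of each list with the highest −log10 q. Intervals in parentheses are 95% exact binomial (Clopper-Pearson) intervals and cover counting error only. End peaks in all 4 equal-length lists were found at 12 of 13 neural stem cell marker genes, among them Fabp7, Sox1, Sox9 and Msi2, and at 61.8% of all coding genes. Of markers of other cells, 9 of 14 of neurons, 6 of 8 of astrocytes, 3 of 8 of oligodendrocytes, 4 of 6 of fibroblasts, 2 of 7 of endothelium, 1 of 7 of microglia and blood (Cd68) and 1 of 7 of pluripotency and germline (Dazl) had them.

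The start of an active or poised gene is usually kept free of nucleosomes, so that transcription factors and RNA polymerase can bind, and most mammalian starts of this kind lie in stretches rich in CG dinucleotides (CpG islands). The far end of a gene, where transcripts are cleaved and polyadenylated, has no such general requirement. Smchd1 is a chromosomal ATPase of the SMC family that takes part in silencing of the inactive X chromosome, of some imprinted genes and of clustered gene families. An open promoter is not a measure of transcription.

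The promoters below, from 250 bases before to 50 bases after the RefSeq start (GRCm38.p6), show the range of sequence behind the results. Depdc1a and Gm32687 had some of the highest fold enrichments. Snrpn had an end peak in both del/del lists and in neither fl/fl list, Olfr536 stood higher in del/del lists, and Sorbs2 and Nrtn stood lower. Capitals mark CG dinucleotides.
Depdc1a: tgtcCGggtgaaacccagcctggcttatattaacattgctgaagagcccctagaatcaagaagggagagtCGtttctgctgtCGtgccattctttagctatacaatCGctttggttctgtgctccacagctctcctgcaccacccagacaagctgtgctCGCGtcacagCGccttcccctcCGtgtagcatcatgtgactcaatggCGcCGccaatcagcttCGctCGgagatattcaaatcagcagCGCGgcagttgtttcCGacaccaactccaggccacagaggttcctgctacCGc
Gm32687: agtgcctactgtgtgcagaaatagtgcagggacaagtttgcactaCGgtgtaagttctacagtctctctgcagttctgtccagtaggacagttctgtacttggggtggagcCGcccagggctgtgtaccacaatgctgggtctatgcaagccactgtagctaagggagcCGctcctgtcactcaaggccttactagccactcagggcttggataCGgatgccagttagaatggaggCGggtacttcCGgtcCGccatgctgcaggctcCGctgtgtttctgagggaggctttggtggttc
Snrpn: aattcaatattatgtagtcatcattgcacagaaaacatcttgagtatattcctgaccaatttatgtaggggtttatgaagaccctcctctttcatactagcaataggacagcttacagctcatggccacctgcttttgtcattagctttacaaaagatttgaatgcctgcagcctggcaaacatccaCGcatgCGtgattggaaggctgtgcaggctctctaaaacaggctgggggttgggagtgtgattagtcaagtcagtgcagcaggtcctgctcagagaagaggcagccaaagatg
Olfr536: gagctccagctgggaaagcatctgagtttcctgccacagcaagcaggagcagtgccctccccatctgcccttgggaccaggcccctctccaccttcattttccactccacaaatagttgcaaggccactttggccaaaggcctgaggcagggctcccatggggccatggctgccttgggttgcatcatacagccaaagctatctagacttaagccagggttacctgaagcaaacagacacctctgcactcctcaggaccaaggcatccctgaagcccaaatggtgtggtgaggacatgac
Sorbs2: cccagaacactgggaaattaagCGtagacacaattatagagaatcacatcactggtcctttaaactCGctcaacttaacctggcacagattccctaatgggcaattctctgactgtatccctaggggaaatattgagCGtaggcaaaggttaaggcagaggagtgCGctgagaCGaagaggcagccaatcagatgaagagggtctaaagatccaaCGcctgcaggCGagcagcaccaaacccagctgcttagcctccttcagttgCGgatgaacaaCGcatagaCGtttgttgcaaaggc
Nrtn: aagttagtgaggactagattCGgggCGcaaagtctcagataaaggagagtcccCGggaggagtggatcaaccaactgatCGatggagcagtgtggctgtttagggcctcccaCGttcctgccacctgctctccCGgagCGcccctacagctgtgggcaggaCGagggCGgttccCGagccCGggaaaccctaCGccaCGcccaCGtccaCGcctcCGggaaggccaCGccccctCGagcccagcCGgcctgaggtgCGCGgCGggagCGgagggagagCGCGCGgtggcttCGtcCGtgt

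Depdc1a lies at chr3:159495183-159495482 on the plus strand with 16 CG, and Gm32687 at chr10:81863641-81863940 on the plus strand with 8. Snrpn lies at chr7:60450128-60450427 on the minus strand with 2 CG, and Olfr536 at chr7:140507269-140507568 on the minus strand with 0. Sorbs2 lies at chr8:45507538-45507837 on the plus strand with 10 CG, and Nrtn at chr17:56757499-56757798 on the minus strand with 28. The median over 14810 promoters that could be matched to a gene end was 14, so Depdc1a and Nrtn stand above it and the other promoters below it.

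The targeted gene itself, Smchd1 (chr17:71344489-71475366, minus strand), kept a strong peak at its start in all lists. That peak ranked 754 in del/del females and 597 in fl/fl females, and 271 in del/del males and 1226 in fl/fl males. Its fold enrichment was 8.81 against 8.28 in females and 11.6 against 9.64 in males. Which exons the floxed allele removes is not stated in the labels, and the peak is no check of the deletion.

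How much of the open chromatin lay at gene ends was asked first. End peaks made up 15.9% of autosomal peaks in the del/del female list (15.7 to 16.1) and 13.6% in the fl/fl female list (13.4 to 13.7), and 17.9% in the del/del male list (17.7 to 18.2) and 16% in the fl/fl male list (15.8 to 16.2). Much of that gap went with list length. Over lists of equal length the shares were 17.3% and 16.9% in females and 17.9% and 17.2% in males. The share was higher in the del/del list of either sex, by less than 1 percentage point, and with 1 list per group this was not tested.

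End peaks were concentrated among the strongest peaks. In the strongest decile, 54.7% of autosomal peaks were end peaks in del/del females (53.6 to 55.8) and 53.3% in fl/fl females (52.2 to 54.3), and 55.6% in del/del males (54.5 to 56.6) and 52.1% in fl/fl males (51 to 53.2). The third decile held 19.4%, 20.1%, 19.3% and 20.8%, and the last decile 8.67%, 6.87%, 8.18% and 6.89%, in the same order of lists. Of the strongest 1000 autosomal peaks, 651 were end peaks in del/del females and 616 in fl/fl females, and 667 in del/del males and 608 in fl/fl males. At the very top the share was lower: of the strongest 100, 42 and 45 were end peaks in females and 45 and 40 in males. The order of the lists was therefore the same in the strongest 1000 and in the strongest decile, with the del/del list higher in either sex.

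**Figure D1:**
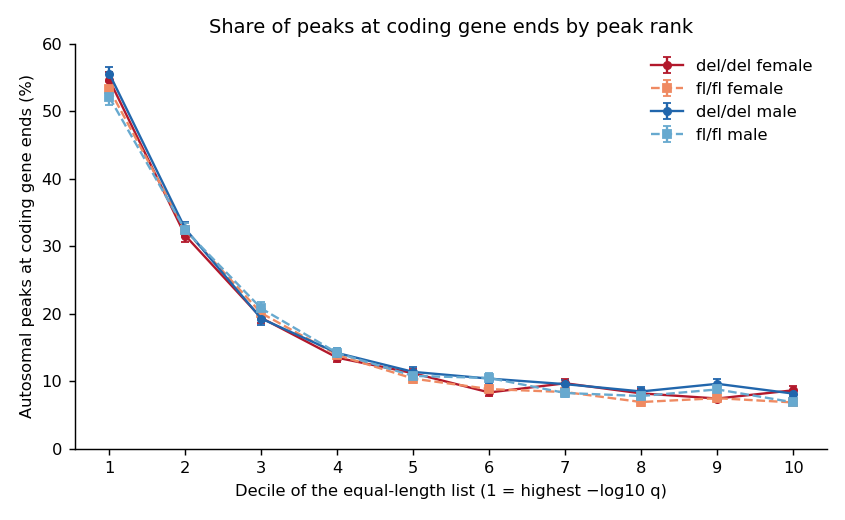
Share of autosomal peaks at coding gene ends (y axis, %) in each decile of the equal-length lists by −log10 q (x axis, 1 = strongest), 1 line per list, bars being 95% exact binomial intervals. All 4 lines fall from over 52% in the strongest decile to under 10% in the last.

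End peaks were wider and taller than other autosomal peaks in every list. Median width was 663 bp at gene ends and 263 bp elsewhere in del/del females, 694 and 269 bp in fl/fl females, 610 and 262 bp in del/del males, and 650 and 269 bp in fl/fl males. Median pileup, the number of tags stacked at the summit, was 82 against 44, 96 against 45, 65 against 33 and 75 against 37 in the same order of lists. Fold enrichment, the authors' ratio of pileup over local background, had medians of 4.77 against 3.25, 4.93 against 3.25, 6.10 against 4.15 and 6.08 against 3.97. Pileup ran with depth, being lowest in the del/del male list, which had the fewest tags, while fold enrichment was higher in both male lists. Levels are therefore read within a list. Of all autosomal peaks over 1 kb wide, gene ends held 69.4% in del/del females and 65.4% in fl/fl females, and 72.6% in del/del males and 68.9% in fl/fl males.

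**Figure D2:**
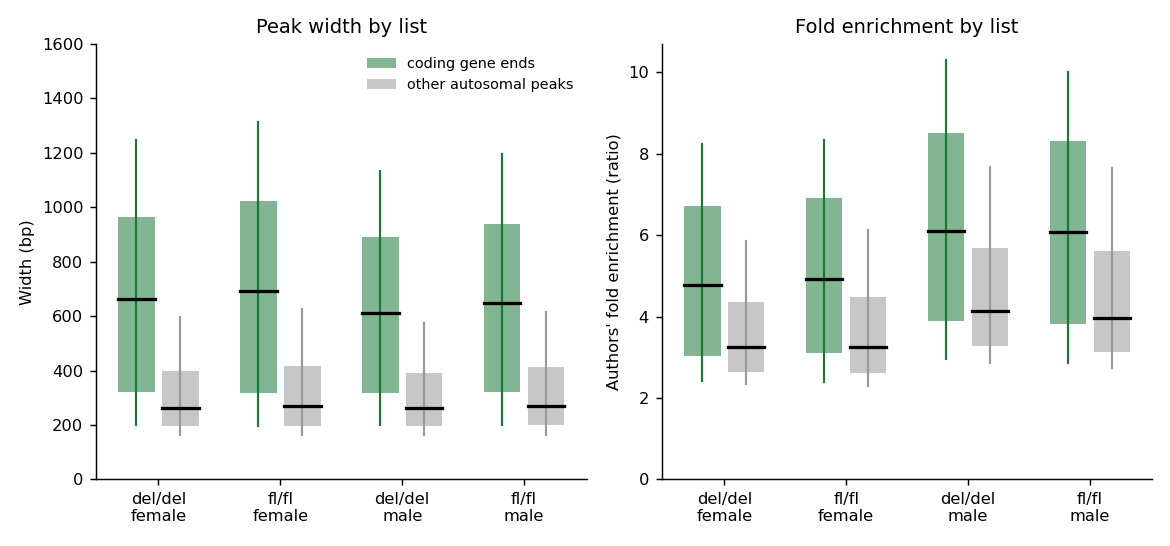
Width in bp (left) and the authors' fold enrichment as a ratio (right) of end peaks (green) and other autosomal peaks (grey) in each list. Black lines are medians, boxes the middle 50% and thin lines the 10th to 90th percentiles over peaks. The end peak medians of width, 610 to 694 bp, all lie above the 262 to 269 bp of other peaks.

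The limit of 1 kb did not divide one kind of peak from another. Peaks with a summit 900 to 1000 bp from a gene end had a median width of 284 bp and a median fold enrichment of 2.96 in del/del females, and those up to 100 bp farther out 286 bp and 2.95. In del/del males the values were 279 bp and 3.67 inside the limit and 296 bp and 3.69 outside it. Summits within 100 bp of an end were another matter, with medians of 788 bp and 6.02 in del/del females and 712 bp and 7.60 in del/del males.

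The start of the gene carried nearly all of this strength. Strand was known for 16456 of the 20661 genes (79.6%). Peaks at a start only were 66.5% of end peaks in del/del females and 64.7% in fl/fl females, and 68.4% in del/del males and 67% in fl/fl males. Their median width was 750, 807, 679 and 731 bp, with median fold enrichments of 5.34, 5.59, 6.71 and 6.74. Peaks at a far end only were 9.65%, 11.4%, 8.32% and 9.40% of end peaks, with median widths of 261, 268, 260 and 259 bp and median fold enrichments of 2.95, 3.04, 3.86 and 3.81. Far end peaks were thus close in median width to the peaks more than 1 kb from any coding gene end. In del/del females 35.3% of start peaks and 2.91% of far end peaks were in the strongest decile of the list, and in fl/fl females 33.2% and 2.1%. A peak stood at the start of 64.4% of genes with a known strand in del/del females and 65.9% in fl/fl females, and 62.5% in del/del males and 63.3% in fl/fl males. The far end had one in 12.5%, 15.1%, 10.8% and 12.1% of genes.

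Summits clustered on the start itself. The median summit lay 10 bp inside the gene in del/del females, 11 bp in fl/fl females, 9 bp in del/del males and 6 bp in fl/fl males. The 100 bp before the start held 3263 summits in del/del females and 3318 in fl/fl females, and 3264 in del/del males and 3376 in fl/fl males. The 100 bp after it held 2583 and 2648 in females and 2529 and 2506 in males. Far ends showed the reverse, a dip. The last 100 bp of genes held 28 summits in del/del females and the first 100 bp beyond them 46, whereas each 100 bp bin from 300 to 1000 bp beyond the far end held between 115 and 130. In del/del males the bins at the far end held 32 and 35 summits, against 90 to 133 in the same outer bins.

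**Figure D3:**
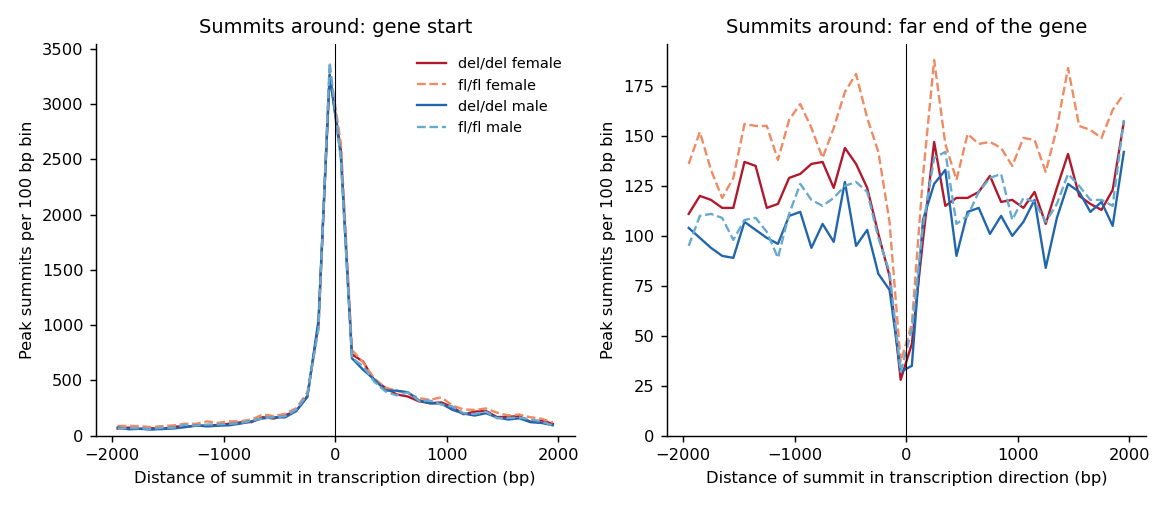
Number of peak summits per 100 bp bin (y axis) by distance along the direction of transcription (x axis, bp, negative = before the point) around gene starts (left) and far ends (right), 1 line per list, for genes with a known strand. Summits pile up at starts, to 3376 per bin in fl/fl males, and dip at far ends, to 28 per bin in del/del females.

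Peaks with a summit within 1 kb of the starts of 2 genes on opposite strands were wider and stronger than peaks at the end of 1 gene only. There were 959 such peaks in del/del females, 983 in fl/fl females, 1019 in del/del males and 1000 in fl/fl males, between 5.75% and 6.62% of end peaks. Median width was 929 and 990 bp in females and 803 and 870 bp in males, against 647, 675, 598 and 638 bp for peaks at the end of 1 gene only. The latter include far ends. Peaks at a start only had median widths of 750, 807, 679 and 731 bp in the same order of lists, so the gap to those was smaller. Shared starts such as Hormad1 and Golph3l, or G2e3 and Scfd1, were among the leading peaks described below.

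The sequence of the promoter set apart genes with and without a start peak. Promoters with a start peak in all 4 equal-length lists (9313) held a median of 22 CG (middle 50%, 14 to 29), and those with one in no list (4733) a median of 2 (1 to 4). The 764 promoters with a start peak in some lists lay between, with a median of 7. Letters searched on both strands followed the same division. GGGCGG, the core of the Sp1 motif, was in 68.1% of promoters open in all lists and 9.63% of those open in none, against 47.8% of all promoters. CCGGAAG, the core of the ETS motif, was in 18.2% and 2.24% (12.4% of all), and GCATGCGC, the core of the NRF1 motif, in 5.66% and 0.549% (3.79% of all). TATAAA, the TATA box, ran the other way, with 6.56% and 27.9% (13.9% of all). CCAAT hardly differed, with 39.3% and 40.3% (39.4% of all). Among promoters with a start peak, however, CCAAT was in 47.8% of those in the strongest decile of the del/del female list and 32.6% of those ranked below it, where GGGCGG was in 73.0% and 62.1% and the median CG count was 24 and 19.

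Among single peaks, the highest fold enrichment at a gene end belonged to Wls in 3 of the 4 lists. Wls encodes the transport protein that carries Wnt ligands to the cell surface. The peak (chr3:159939345-159939730 in del/del females) lay 912 bp beyond the far end of the gene and was only 386 bp wide. Its fold enrichment was 15.1 in del/del females and 13.5 in fl/fl females, and 24 in del/del males and 20.3 in fl/fl males. It was thus a narrow peak beyond the far end of its gene, unlike most other leading peaks, which lay at starts. The leading peak at Zbbx was nearly as narrow, with 433 bp in del/del males against 399 bp for Wls.

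Most other leading peaks sat on gene starts and were wide. Of the 100 end peaks with the highest fold enrichment, 84 had a start as the nearest end in del/del females and 80 in fl/fl females, and 83 in del/del males and 81 in fl/fl males. Depdc1a had a fold enrichment of 13.3 in del/del females and 12.1 in fl/fl females, and 15.1 in del/del males and 14.1 in fl/fl males. Gm32687, a predicted coding gene, had 13.1 and 14.7 in females and 16.9 and 16.4 in males. Bche, the gene of butyrylcholinesterase, had 13 and 12 in females and 17.1 and 15.1 in males. Tmem45a, AU041133, Gm4724, Ankef1 and Mei4, a gene of meiotic recombination, were also among the first 12 in del/del females, with 12.6 to 12.9. Khdrbs2, which encodes an RNA-binding protein, had 13 in fl/fl females, where Gm51425, Zbbx, Hormad1 with Golph3l, and Tbc1d19 were also among the first 12. Akr1e1, an aldo-keto reductase gene, had 16.9 in del/del males, Gm5141 16.7 and Hltf, a helicase gene of DNA damage tolerance, 16.3, and Gm5165 followed with 15.8. G2e3 with Scfd1 had 16 in fl/fl males, and Agbl4, whose product trims glutamates from tubulin, and Fstl5 had 15.2 each.

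Zinc finger genes of the Zfp series were frequent among these peaks. Zfp genes had 15 of the 100 end peaks of highest fold enrichment in del/del females and 14 in fl/fl females, and 13 in del/del males and 12 in fl/fl males, against 2.24%, 2.19%, 2.30% and 2.28% of all end peaks. Most genes of this series encode DNA-binding proteins with C2H2 zinc fingers. Zfp53 had a fold enrichment of 12.8 in del/del females and 12.2 in fl/fl females, and 16 in del/del males and 13.2 in fl/fl males. Zfp433 had 12.5 and 13.3 in females and 15.5 and 14.3 in males, Zfp960 12.7 and 11.6, and 15.2 and 13.5, and Zfp966 12.2 and 12.3, and 15.5 and 16. Zfp967, Zfp968 and Zfp955a led in the fl/fl female list with 13.9, 12.8 and 12.7. The best end peak of a Zfp gene had a median rank of 7517 in del/del females and 7551 in fl/fl females, and 7737 in del/del males and 7954 in fl/fl males, whereas over all coding genes the medians were 12433 and 12492, and 11955 and 12806. Several of these genes lie in clusters of near-identical copies, where reads can be shared or discarded, so single values there are uncertain.

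Ordered by width in del/del females, the widest end peaks present in all lists were led by a peak at Gm20783 and LOC108167694, 3482 bp in del/del females and 3524 bp in fl/fl females, and 2267 bp in del/del males and 2259 bp in fl/fl males. The order differed in the other lists. Ing2, whose product reads methylated histone H3, had a peak of 2689 and 1716 bp in females and 1538 and 1482 bp in males. Chst2, a sulfotransferase gene, had 2526 and 2616 bp, and 2393 and 2377 bp. Sp3, a factor of the Sp1 family, had 2478 and 2536 bp, and 2327 and 2301 bp. Rims2, a gene of synaptic release sites, had 2476 and 2712 bp, and 2125 and 1995 bp, and Cdk13, a kinase of RNA polymerase II, 2448 and 2510 bp, and 1205 and 2316 bp. Their fold enrichments were moderate, at 3.78 to 6.55 in del/del females, so the widest end peaks were not the strongest.

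The lists differed little in which genes had an end peak. Of 20661 coding genes, 12768 (61.8%) had one in all 4 equal-length lists and 6499 (31.5%) in none. In the deposited lists at full length, 59 genes had an end peak in both del/del lists and in neither fl/fl list, and 135 in both fl/fl lists and in neither del/del list. The fl/fl lists are the longer ones in both sexes, so the 2 numbers cannot be compared. Over equal-length lists 132 genes (0.639%) had an end peak in both del/del lists only, and 65 (0.315%) in both fl/fl lists only. Beside these, 58 genes had one in both female lists only and 49 in both male lists only. With 1 list per group the difference was not tested. Of the 59 genes, 21 had a peak that overlapped a peak of the other genotype with its summit more than 1 kb away, which leaves 38 genes, and of the 135 genes 127 were left. Most of these peaks were weak. Among the 38, Vmn1r71 and Snrpn had mean ranks of 4651 and 17554 over the del/del lists, the third was A26c2 with 46560, and the best mean rank among the 127 was 49199, at Tle2.

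By gene group, the share of genes with an open end varied widely. End peaks in all 4 equal-length lists were found for 69 of 76 cytosolic ribosomal protein genes, 73 of 79 histone genes, 12 of 14 housekeeping genes, 21 of 25 genes of Polycomb complexes and DNA methylation, 293 of 360 Zfp genes and 17 of 23 genes of neural patterning factors. The imprinted genes had them for 29 of 45, the clustered protocadherins, adhesion proteins of neurons, for 27 of 57, and the Hox clusters for 7 of 39. Olfactory receptors had them for 19 of 1100 genes and vomeronasal receptors for 3 of 352. Among ribosomal protein genes Rpl15 had a fold enrichment of 8.70 in del/del females and 8.83 in fl/fl females, and 11.6 in del/del males and 10.7 in fl/fl males. Lrif1, whose product binds Smchd1, had 11.6 and 11.4, and 14.9 and 13.4, and Smc3, a cohesin subunit gene, 7.17 and 6.72, and 10 and 8.80. Values of a group rest on its members with a peak, not on all members.

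The main comparison asked which end peaks appeared or disappeared after Smchd1 deletion. A gained peak ranked within the first 44079 of the del/del list and overlapped no peak of the equal-length fl/fl list; a lost peak was the reverse. Few end peaks did by this rule. In females 11 of 11150 strong end peaks were gained, or 0.0987% (0.0493 to 0.176), where 1.11% of all strong autosomal peaks were. Lost in females were 3 of 11148, or 0.0269% (0.00555 to 0.0786), where 0.45% of all were. In males 19 of 11419 were gained, or 0.166% (0.100 to 0.260), where 0.831% of all were, and 15 of 11180 were lost, or 0.134% (0.0751 to 0.221), where 1.08% of all were. In each comparison the share among end peaks was well under that over all autosomal peaks. These counts depend on the value used for ranking: with peaks ranked by pileup, 39 end peaks were gained and 150 lost in females, 71 gained and 150 lost in males, and 19 lost in both sexes. The shares by pileup were 0.326% gained and 1.25% lost in females, where 1.23% and 1.73% of all candidates were, and 0.58% gained and 1.26% lost in males, where 1.23% and 1.82% were.

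Because end peaks rank higher, the shares were also set side by side within quartiles of the candidates by rank. The last quartile for gains in females held 6 called of 1188 end peaks, a share of 0.505% (0.186 to 1.10), and a share of 3.01% of other peaks (2.68 to 3.37). In males the last quartile had 14 of 1225 end peaks gained, or 1.14% (0.626 to 1.91), and 2.67% of other peaks (2.35 to 3.01). Lost shares there were 0.267% (0.0551 to 0.779) and 1.92% (1.65 to 2.21) in females, and 1.07% (0.573 to 1.83) and 4.18% (3.78 to 4.60) in males. End peaks were thus below other peaks of like rank in all 4 comparisons, by more than counting error in that quartile.

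**Figure D4:**
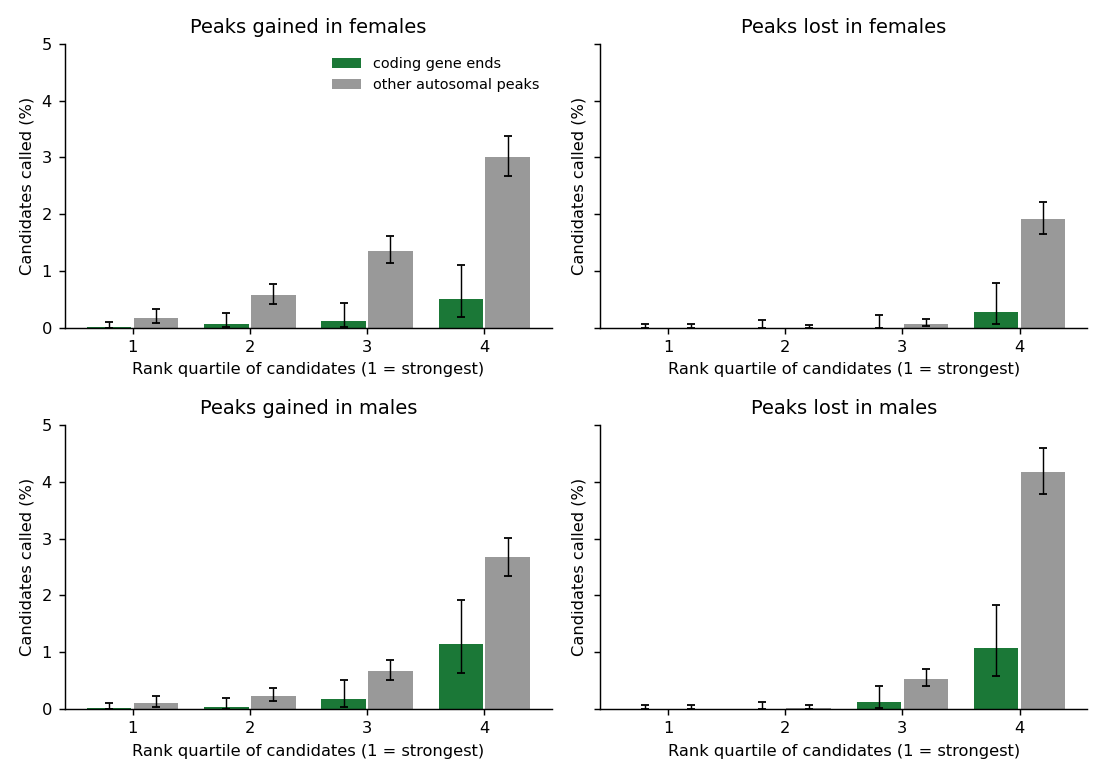
Share of candidate peaks gained or lost (y axis, %) in each rank quartile of the candidates (x axis, 1 = strongest), for end peaks (green) and other autosomal peaks (grey), with 95% exact binomial intervals. In quartile 4 the end peak bars stand at 0.267% to 1.14%, all under the 1.92% to 4.18% of other peaks.

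Lists of the same genotype gave a measure of how far 2 lists differ without a change of Smchd1. Strong end peaks of del/del females absent from del/del males numbered 9 of 11150, where 0.768% of all autosomal candidates were absent, and the reverse 14 of 11419, where 0.461% were. Between fl/fl lists, 5 of 11148 female end peaks were absent from the male list (0.114% over all) and 1 of 11180 male ones from the female list (0.0861% over all). The numbers between genotypes, 3 to 19, were of the size found between sexes of the del/del lists. The stronger ranks differed: in the first 3 quartiles, between lists of the same genotype 0 end peaks were called in all 4 directions, whereas between genotypes 5 were gained in females and 5 in males, and 0 were lost in females and 2 in males. Other peaks of those quartiles ran alike, with 176 gained in females (0.797%) and 84 in males (0.382%), 6 lost in females and 49 in males, and between lists of the same genotype 31 and 11 for del/del and 0 and 2 for fl/fl.

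Conversely, nearly all strong end peaks were present in both genotypes. In females 99.90% of strong end peaks of the del/del list overlapped the equal-length fl/fl list and 99.97% of the fl/fl list the del/del one, and in males 99.83% and 99.87%. Other strong peaks did so in 98.54% and 99.40%, and 98.93% and 98.59% of cases. Over all ranks the shares were 94.6% and 94.2%, and 92.9% and 93.5%, at gene ends, and 83.0% and 80.7%, and 81.0% and 78.9%, elsewhere.

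Gained in both sexes were 5 end peaks, at Vmn1r71, Snrpn, Gm8094, Ajap1 and Fcgr4, out of 10693 strong in both del/del lists, or 0.0468%, where 0.353% of all autosomal candidates were. They made up 45.5% of the peaks gained in females and 26.3% of those gained in males. Over all autosomal candidates 133 were gained in both sexes, beside 472 gained in females and 357 in males. The share of end peaks was thus above that over all in females and below it in males. Lost in both sexes were 0 of 10715, where 0.0362% of all candidates were lost. A count of 3, taken here as a rough upper limit in place of the exact interval, would be a share of 0.028%. The 5 peaks differ in strength and in how the fl/fl lists look beneath them.

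Vmn1r71, a vomeronasal receptor gene on chromosome 7, had the strongest of them. The peak (chr7:10747813-10748320 in del/del females) had its summit 556 bp from the far end of the gene. It ranked 3883 with a fold enrichment of 9.28 in del/del females and 5419 with 11.7 in del/del males. Neither fl/fl list held an overlapping peak at any rank. Vomeronasal receptor genes form large families with close copies, so reads here may be ambiguous.

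Snrpn, an imprinted gene expressed from the paternal allele, encodes a splicing protein and lies in the region lost in Prader-Willi syndrome in humans. Its gained peak (chr7:60450028-60450359 in del/del females) had the summit 21 bp from the outermost start of the gene, which spans chr7:59982495-60450177. It ranked 16779 with a fold enrichment of 6.24 in del/del females and 18329 with 7.73 in del/del males, and no fl/fl list held a peak there. The promoter at this start is the CG-poor one printed above, with 2 CG. The gene table gives only the outermost ends, so inner starts of Snrpn were not covered.

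The other 3 were weaker. Gm8094 ranked 21598 with a fold enrichment of 5.59 in del/del females and 23990 with 6.72 in del/del males, and the full fl/fl female list held a peak there at rank 95648 with 2.78. It is a predicted gene of a family with close copies, so its values are uncertain. Ajap1, which encodes an adherens junction protein, ranked 36468 with 3.09 and 33899 with 3.72, its summit 730 bp from the start. Fcgr4, an Fc receptor gene of myeloid cells, ranked 42801 with 3.94 and 42873 with 4.72, near the edge of the candidates, and a fl/fl female peak ranked 103788.

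The remaining gained end peaks were called in 1 sex. Some of them fell past the limit on candidates in the other sex: the Ubxn10 peak ranked 48885 in del/del males and the A26c2 peak 55115 in del/del females, past the first 44079. No fl/fl list held a peak that overlapped the called peaks, of del/del females at Ubxn10 and of del/del males at A26c2. Ubxn10 was, however, among the genes set aside above because an end peak overlapped a peak of the other genotype. The Ano5 peak, called in males, ranked 16219 in del/del females and 72326 in fl/fl females. In females the gained peaks included those at Nell1, Ubxn10, Trim12a, Olfr560 and Exo5. Nell1, a secreted factor of bone formation, had the widest, 1073 bp with a fold enrichment of 4.44 in del/del females, against a fl/fl female peak at rank 97069 with 2.78. In males the best ranked were at Ano5, Alx4, Acte1, Gkap1, Slc29a1, Slc5a7 and Zfp345, and further down stood Hoxd13, Hepacam2, A26c2, Pdcd2l, Fnbp4 and Gm6460. Alx4 encodes a homeobox protein of skull and limb, and its peak ranked 30191 with a fold enrichment of 5.12 in del/del males. Hoxd13, a gene of digit development, ranked 40221 with 4.59 in del/del males, and its counterpart in the full fl/fl male list 94466 with 2.75. Of the 11 peaks gained in females 5 had such a weaker counterpart in the full fl/fl list, and of the 19 gained in males 7. By fold enrichment, Ano5, Slc29a1, Slc5a7 and Zfp345, gained in males, were also higher in del/del than in fl/fl females. Alx4 (3.69 against 3.9), Acte1, Gkap1 (2.71 against 3.97), Hepacam2, Hoxd13 (2.96 against 3.38) and Fnbp4 were lower. Gm6460 had a female peak in the fl/fl list only. Nell1, Trim12a and Exo5, gained in females, were higher in del/del males too. Olfr560 was in the fl/fl male list only, with 3.71.

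Lost end peaks were weak, and in males most were at genes with another end peak. The 3 lost in females were at Gm4631, at the shared start of Cpeb3 and Marchf5, and at Capns1, with fold enrichments of 4.92, 3.9 and 3.73 in fl/fl females and ranks from 37403. The 15 lost in males were led by Pou5f2, a POU factor gene of testis, which ranked 30568 with 6.10 in fl/fl males. Asxl3, Trh, Gm13271, Slc15a2, Kyat3, Socs2, Ctf1, Ddx5 and Jam2 followed. Then came Selenos, Fh1, S100a7a, Gm30732 and the ends of Klhdc9 with Pfdn2. Their fold enrichments ran from 3.21 to 5.86. Apart from those at Socs2 and Ddx5, each peak lost in males overlapped a peak of the del/del female list. There Pou5f2 ranked 35827 with 4.35 and Fh1 36916 with 3.42, against 31355 with 5.4 and 60646 with 2.88 in fl/fl females. The del/del male list had the fewest tags, and the part of depth in these losses was not tested. None of the 3 peaks lost in females overlapped a peak of the full del/del female list. For the 15 lost in males the same holds by the rule, since the del/del male list is the one that sets the equal length. In 11 of the 15 cases in males the same gene had another end peak that was present in both genotypes, and likewise in 1 of 3 lost in females, 4 of 11 gained in females and 7 of 19 gained in males. The other peak could be at either end of the gene. The same share over all candidates is not given, so nothing particular to changed peaks is read from these counts.

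By median, changed end peaks lay farther from a gene end than candidates did. Some nonetheless sat close to a start, such as Snrpn (21 bp in del/del females), Slc29a1 (13 bp in del/del males) and Capns1 (7 bp in fl/fl females). Summits of changed peaks had a median distance of 578 bp from the nearest gene end for gains in females and 542 bp for gains in males, against 85 and 86 bp for all candidates. For losses the medians were 664 bp and 582 bp, against 83 and 84 bp. Far ends had a larger changed share than starts in each comparison: 4 of 502 far end candidates were gained in females, or 0.797% (0.218 to 2.03), and 5 of 8445 start candidates, or 0.0592% (0.0192 to 0.138). In males 4 of 557 far end candidates were gained, or 0.718% (0.196 to 1.83), and 13 of 8598 start candidates, or 0.151% (0.0805 to 0.258). Lost in males were 4 of 529 at far ends and 7 of 8433 at starts, or 0.756% (0.206 to 1.92) and 0.083% (0.0334 to 0.171). Lost in females were 1 of 536 at far ends and 2 of 8399 at starts, or 0.187% (0.00472 to 1.04) and 0.0238% (0.00288 to 0.086). The intervals overlapped for gains in males and losses in females and did not for gains in females and losses in males. Far end candidates also rank lower than start candidates, and most changed peaks came from the last rank quartile. The part of rank in these distances and shares was not tested.

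Finer differences were sought in the ranks of peaks present in both lists. A shift was the difference of ranks as a percentage of the list length, positive where the peak stood higher in the del/del list, and 10 points or more was called. In females 1007 of 13569 end peak pairs shifted up (7.42%), where 16.7% of all autosomal pairs did, and 1236 down (9.11%), where 18.4% did. In males 1370 of 13695 shifted up (10%), where 18% of all did, and 927 down (6.77%), where 17.2% did. The median shift of end pairs was 0.07 points in females and 0.57 in males. Between lists of the same genotype the counts were as high: of 13716 end pairs of del/del females over del/del males 1009 shifted up (16.5% over all) and 1373 down (17.6% over all), and of 13677 of fl/fl females over fl/fl males 1065 up (15% over all) and 886 down (14% over all). Single shifts of this size thus occurred in similar numbers between sexes and between genotypes.

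The size of a shift went with rank, and ranks near either end of a list leave less room to move. In the strongest decile the median absolute shift of end pairs was 1.08 points in females and 1.08 in males, in the eighth decile 13.7 and 12.4 points, and in the last decile 5.42 and 5.46 points. In the same deciles other peaks had 1.40 and 1.55, 14.2 and 15, and 5.81 and 5.15 points. Part of the gap between end and other peaks in the share of shifted pairs therefore went with rank. Within deciles a gap was seen in some and not in others. In the third decile 5.24% of end pairs and 9.15% of other pairs shifted up in females, and 5.65% and 9.06% down. In males 8.16% and 8.93% shifted up there, and 3.59% and 10.8% down. Elsewhere the shares were level or reversed. In the eighth decile 33.7% of end pairs and 33.4% of other pairs shifted down in females. In the ninth 38.7% and 35.3% shifted up in males. End peaks thus did not shift less at like rank throughout.

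Across the sexes, 249 of 12949 end peaks paired in all lists shifted up in both (1.92%), where 5.4% of all autosomal pairs did, and 223 shifted down in both (1.72%), where 5.49% did. Opposite shifts, up in females and down in males, were found for 116 end peaks (0.896%), where 2.35% of all autosomal pairs had them, and down in females and up in males for 228 (1.76%), where 3.16% had them. The Pearson correlation of female and male shifts over these end peaks was 0.14, and 0.24 over other peaks, a description over peaks of the same 4 lists. By 20 points or more in each sex, 58 end peaks shifted up (0.448%), where 1.43% of all autosomal pairs did, and 23 down (0.178%), where 1.12% did.

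**Figure D5:**
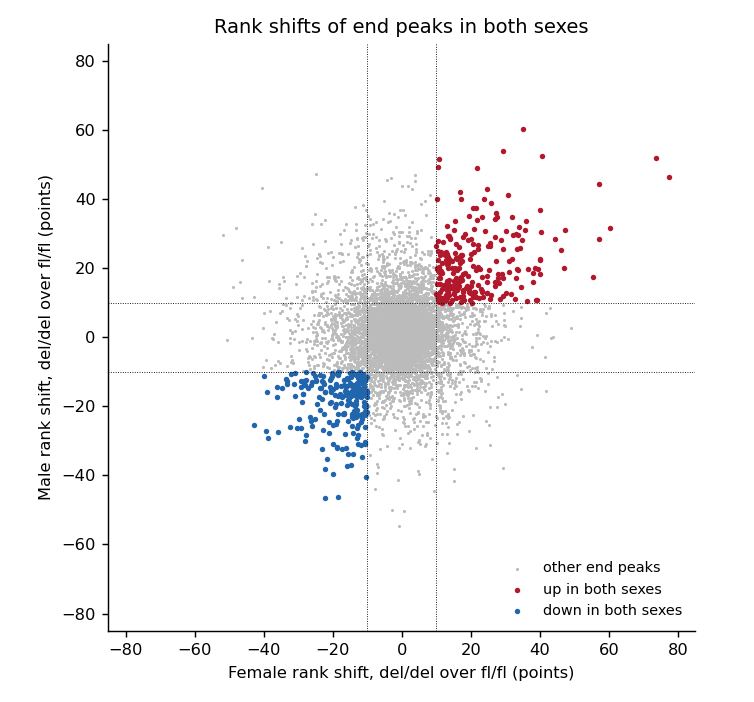
Rank shift of each end peak paired in all lists (12949 points), del/del over fl/fl, in females (x axis) and males (y axis), in points of list length. Red marks the 249 peaks shifted up by 10 points or more in both sexes and blue the 223 shifted down; the far upper right holds Olfr536 at 77.3 and 46.4 points and Cntnap5c at 73.8 and 52.1.

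Cntnap5c, a gene of the contactin-associated neuronal adhesion family, shifted up most by the smaller of the female and male shifts, the value used to order these peaks. Its peak (chr17:57769041-57769479) ranked 9522 in del/del females and 74558 in fl/fl females, and 14392 in del/del males and 60282 in fl/fl males. Fold enrichment was 7.56 against 3.25 in females and 8.58 against 3.95 in males. Both del/del lists thus held it among strong peaks and both fl/fl lists among weak ones.

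Olfr536, an olfactory receptor gene on chromosome 7, came next. Its peak over the promoter without CG printed above ranked 10315 in del/del females and 78485 in fl/fl females, and 10434 in del/del males and 51359 in fl/fl males, with fold enrichments of 7.10 against 3.17 and 8.89 against 4.43. Hnf4g, a nuclear receptor gene, had 6.32 against 3.49 in females and 6.72 against 3.83 in males. The uncharacterised gene 5730507C01Rik had 8.43 against 5.08 and 9.77 against 3.95. L3mbtl4, a gene of the malignant brain tumour repeat family, had 6.00 against 3.33 and 4.01 against 3.11. Dpp6, which encodes a partner of neuronal potassium channels, had 4.11 against 3.33 and 4.72 against 3.47. Gm21188, Gm21083, Ugt1a6a and Bpifa5 complete the first 10, and the predicted genes Gm21188 and Gm21083 have close copies, so their values are uncertain.

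Downward shifts were smaller and among weaker peaks. Gtf2a1l, a germ cell form of a general transcription factor, ranked 74805 in del/del females and 40544 in fl/fl females, and 65718 in del/del males and 39949 in fl/fl males, with fold enrichments of 2.87 against 4.62 and 3.58 against 5.00. Sorbs2, a gene of a cytoskeletal adaptor whose promoter is printed above, had 3.29 against 5.08 in females and 3.86 against 5.86 in males. Nrtn, which encodes the neurotrophic factor neurturin, had 2.23 against 3.02 and 2.42 against 3.34 at its CG-rich promoter. Cyp4f39, a cytochrome P450 gene, had 3.54 against 6.00 and 3.63 against 5.38. Src, the tyrosine kinase gene, had 2.28 against 3.14 and 2.46 against 3.40. The shared start of Bhmt2 and Dmgdh, enzymes of betaine and glycine metabolism, had 2.71 against 4.37 and 3.15 against 4.31. Cplane2, Klf16, Fam43b and Mnat1 complete the first 10. The promoters of genes shifted up (192 with an entry) and down (157) in both sexes each had a median of 14 CG, so CG count did not separate the directions.

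By gene group, few members shifted in both sexes. A gene counted through any of its end peaks, so that Heyl, for example, counted in both directions. Of 9 neuron markers paired in all lists 3 shifted up (Elavl3, Gad1 and Snap25) and 0 down. Snap25, a gene of synaptic vesicle fusion, had a fold enrichment of 5.27 against 4.73 in females and 5.73 against 4.71 in males at this peak, with shifts of 13.7 and 15.1 points. This was not its strongest end peak. The highest fold enrichment at an end of Snap25 was lower in del/del lists, at 8.06 against 8.7 in females and 9.59 against 9.86 in males. Gad1, the enzyme that makes the transmitter GABA, had shifts of 28.1 and 17.1 points. Of 12 neural stem cell markers, 6 astrocyte, 3 oligodendrocyte and 12 housekeeping genes, 0 shifted in either direction in both sexes.

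Of 19 genes of neural patterning factors paired 4 shifted up (Dlx2, En1, Meis2 and Nkx6-1) and 1 down. Nkx6-1, a patterning factor of the ventral neural tube, ranked 8311 in del/del females and 23951 in fl/fl females, and 10615 in del/del males and 22153 in fl/fl males. Of 7 Hox genes paired 2 shifted up, both in the Hoxd cluster: Hoxd8 with 3.83 against 3.25 and 3.86 against 3.11, and Hoxd1 with 3.78 against 3.57 and 3.72 against 3.11.

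Of 30 imprinted genes paired 2 shifted up (Grb10 and Zrsr1) and 2 down (the neighbours Peg10 and Sgce, at 1 peak). Zrsr1 shifted by 38.5 and 20.2 points and Grb10, a brake on insulin signalling, by 11.9 and 10.8. Peg10 shifted by -25.6 and -10.4 points. Of 27 clustered protocadherins 1 shifted up (Pcdha8) and 0 down, and of 18 olfactory receptors 3 up (Olfr536, Olfr95 and Olfr1344) and 0 down. Of 70 ribosomal protein genes 1 shifted up (Rpl23a), and of 73 histone genes 3 (H1f1, and H2ac20 with H2ac21 at 1 peak). Of 292 Zfp genes 5 shifted up (Zfp423, Zfp488, Zfp978, Zfp982 and Zfp991) and 2 down (Zfp628 and Zfp764). Over all 12866 coding genes with a paired end peak 264 shifted up (2.05%) and 240 down (1.87%) in both sexes, and nothing particular to any group is read from these counts.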

How the data were processed

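The submitters' processing notes name the build mm10 and the tools Bowtie2 2.2.5, Trim Galore 0.4.0, MACS2, Picard, SAMtools, bcl2fastq and edgeR, without their roles. Peaks came from MACS 2.1.0.20140616 without a control, per the file headers, which name 1 pooled alignment for each group, 1 tag kept per position, a q-value limit of 0.05, an extension size of 150 bp and a 75 bp upstream shift. Pileup, a signal height not scaled for depth, fold enrichment, a ratio to local background, peak width in bp, and −log10 q are the authors' deposited values, used to describe and rank peaks within a list. Tag sizes in the headers were 63, 53, 59 and 62 bp for del/del females, fl/fl females, del/del males and fl/fl males, and the 88159th peak had a −log10 q of 4.27, 6.59, 1.39 and 4.52.

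The peaks of chromosomes 1 to 19, X and Y, all others being dropped, were ranked by −log10 q, ties by fold enrichment, pileup and position, and autosomal ones were reported. Gene ends came from the RefSeq table of GRCm38.p6 (the sequence of mm10), strand and promoters from the RefSeq promoter table. Overlap meant at least 1 shared bp. Shifts paired each peak with its strongest overlapping partner, and the sexes were joined by overlapping del/del peaks. The members, gene lists, motifs and rules were chosen with earlier results of these data known. Genes were named by rule: the 12 highest fold enrichments per list, peaks gained or lost in both sexes, the 10 best ranked gained and lost per sex, the 10 largest shifts each way, Smchd1, up to 4 members per list and those that changed, and the 6 widest shared peaks. Other genes, such as those below these limits, were named after their values were seen, and a few single genes are not reported here. With 1 list per group, no p-value was computed. The calling steps were tested on simulated lists. Alternatives were other windows, list lengths, ranking values, overlaps, margins and thresholds. The software was Python 3.11.15 with numpy 2.4.6, pandas 2.3.3, matplotlib 3.10.9 and scipy 1.17.1.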

Additional observations from a re-analysis of the deposited data

Results flagged for a closer look

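One end peak moved in opposite directions in the 2 sexes. The peak at the shared start of Cpeb3, a regulator of mRNA translation, and Marchf5, a mitochondrial ubiquitin ligase, was gained in males, at rank 38664 with a fold enrichment of 4.40 in the del/del male list, and lost in females, at rank 42690 with 3.9 in the fl/fl female list. The full fl/fl male list held it at rank 89848 with 2.62, just past the equal length, and the del/del female list held no overlapping peak. Its summit lay 917 bp from the nearest end in del/del males and 914 bp in fl/fl females. The difference between the sexes was not tested.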

How the results depend on the processing

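Each group has 1 pooled list, so nothing here has a replicate error, and leaving out replicates in turn was not possible. No paired analysis was possible because the lists pool the numbered libraries. Depth, tag size and sex differ between lists, and weak peaks are least reliable in the shallow del/del male list.

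Of 74 values under other settings 32 stayed within 1.5 times the reported count, or, for shares, within its 95% interval, and 42 did not. The number of genes open in all lists stayed between 11126 and 14030. With windows of 500 bp and 2 kb the share at gene ends was 12.3% and 20.3% in del/del females, 10.3% and 17.9% in fl/fl females, 13.9% and 22.4% in del/del males, and 12.4% and 20.3% in fl/fl males. Over equal-length lists it was 17.3%, 16.9% and 17.2% in the first 2 and the last of these lists, and over peaks with −log10 q of at least 10 it was 23.1%, 19.8%, 25.6% and 22.4%. A window of 500 bp left 4 gained and 1 lost in females, 7 and 5 in males, 2 gained in both sexes and 142 shifted down in both. A window of 2 kb gave 7 lost in females, 24 lost in males and 385 shifted up in both. Lists as deposited gave 6 gained in females, 12 in males and 3 in both. Ranked by pileup, 39 were gained and 150 lost in females, 71 and 150 in males, and 19 lost in both sexes, so the near absence of losses depends on the ranking value, and the cause was not tested. Ranked by fold enrichment, 9 were lost in females. The strongest quartile as candidates left 3 gained in females, 2 in males and 2 in both, and 0 lost in either sex. Thresholds of 5 and 20 points gave 725 and 58 shifted up and 635 and 23 down in both sexes.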

Other observations

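Some gene families recur among the end peaks that stood higher in both del/del lists. They were chosen after their values had been seen, so they carry no test. Of 6 contactin-associated protein genes paired in all lists 4 shifted up in both sexes (Cntnap2, Cntnap5a, Cntnap5b and Cntnap5c) and 0 down, where 2.05% of all 12866 coding genes with a paired end peak shifted up and 1.87% down. Cntnap5b had a fold enrichment of 9.53 in del/del females and 7.14 in fl/fl females, and 12.2 in del/del males and 8.02 in fl/fl males, and Cntnap5a 6.90 against 4.92 and 7.44 against 4.43. A Cntnap2 peak had 5.59 against 3.33 and 6.15 against 4.31.

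Of 42 paired Trim genes, which encode tripartite motif proteins, some with roles in antiviral defence, 5 shifted up in both sexes and 0 down, beside the same 2.05% and 1.87% over all coding genes. Trim5, Trim12a, Trim30a and Trim30d lie together on chromosome 7 and Trim58 on chromosome 11. Trim30a had 8.13 against 4.84 in females and 9.73 against 5.38 in males, Trim30d 7.47 against 5.00 and 8.01 against 4.91, and Trim5 8.54 against 6.11 and 11.7 against 8.26. Members of this cluster are close copies, so reads may be shared between them. Eomes, a T-box gene of neuronal progenitors, had 3.31 against 3.05 and 4.06 against 3.20, with shifts of 16 and 22.7 points.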
